A study of Mus musculus with 6 samples.

Results

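The SNARE fusion machinery was followed here through 8 genes, Snap25, Stx1a, Vamp1, Vamp2, Cplx1, Cplx2, Nsf and Napb, matched by symbol among the 52550 genes of the count table. All 8 were found and all 8 passed the filter on low counts. Of the 40961 alternative splicing events listed for these libraries, 15 lay in 5 of the 8 genes, and Vamp1, Vamp2 and Cplx2 had none. RNA-seq was performed on the hippocampus of 3 control mice and 3 mice with L-DL knockdown (KD). L-DL is the long isoform of hnRNP DL, an RNA-binding protein of nuclear speckles, and the study asked how its loss alters splicing in the brain.

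The mice were male C57BL/6 J, and virus was delivered to CA1 of both hippocampi at 8 weeks of age. The control group received a control shRNA virus, at a higher titre than the KD virus, and the KD group a virus with 4 L-DL shRNAs in tandem, each under an H1 promoter. A CamkIIα promoter drove only the green reporter of that vector, which marks infected neurons. The sample labels call the controls wild type and the other mice hnRNP DL KD, with a genotype written as -/-, and do not state an age or say that 1 library is 1 animal. The P values below therefore measure the spread between these libraries, which may be in part technical.

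Fusion of a synaptic vesicle with the plasma membrane is driven by the zippering of SNARE proteins into a bundle of helices. The vesicle contributes a VAMP (synaptobrevin), and the target membrane contributes syntaxin and SNAP-25. Complexins bind the assembled bundle and hold it ready for the calcium signal, and after fusion the ATPase NSF, recruited by SNAP proteins such as the product of Napb, pulls the spent complex apart. In the hippocampus, Snap25 has a pair of alternative exons, of which exon 5a prevails in the developing brain and exon 5b in the adult.

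Both exon 5 versions are shown because their event had the most counts among the tested events of the 8 genes. The sequences were read from GENCODE M21 transcripts (GRCm38), 5′ to 3′, on the plus strand of chromosome 2. Exon 5a lies at chr2:136769743-136769860 (transcript Snap25-202) and exon 5b at chr2:136770057-136770174 (transcript Snap25-201), with 196 nt of intron between them. Capitals mark the bases that differ.
Snap25 exon 5a: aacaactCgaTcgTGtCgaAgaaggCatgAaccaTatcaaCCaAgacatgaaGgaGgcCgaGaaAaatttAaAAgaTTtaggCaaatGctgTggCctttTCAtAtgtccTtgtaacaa
Snap25 exon 5b: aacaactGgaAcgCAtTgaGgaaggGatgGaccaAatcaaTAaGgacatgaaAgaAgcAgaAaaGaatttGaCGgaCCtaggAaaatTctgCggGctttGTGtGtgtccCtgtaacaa
The exons have the same length, 118 nt, and differ at 31 bases, so that 73.7% of the bases are identical. The encoded proteins both have 206 residues and differ at 9 of them, all between residues 58 and 89.

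A segment of Stx1a is shown as well, chosen after the values of its event were seen and not by its counts. In the long form of exon 9, an upstream acceptor site adds 83 nt (chr5:135048911-135048993, plus strand) to the start of the exon. Capitals mark these added bases and, in the shared sequence after them, the first in-frame stop codon of transcript Stx1a-204.
Stx1a exon 9, long form, first bases: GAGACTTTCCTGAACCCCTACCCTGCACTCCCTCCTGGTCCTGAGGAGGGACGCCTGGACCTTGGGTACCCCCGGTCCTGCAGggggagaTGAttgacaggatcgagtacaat
The annotation classes Stx1a-204 as a target of nonsense-mediated decay. Its coding sequence runs through all 83 added bases and ends 104 bases before the end of exon 9, which is followed by the last exon of the transcript, number 10.

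The libraries held 16052529 to 16995425 counts in the control group and 16525467 to 17913064 in the KD group. Levels are given as CPM, the count of a gene per 1000000 counts of its library, with library totals scaled by TMM, a factor that aligns the bulk of genes between libraries. The targeted gene, Hnrnpdl, was no lower after knockdown than in the controls. Its level was 176, 183 and 170.5 CPM in the controls and 217, 150.03 and 173 CPM in the KD libraries (log2 fold change 0.026 ± 0.12 SE, edgeR adjusted P = 0.898). Counts per gene do not separate the long isoform, so the label was not checked by them, and "KD" and "L-DL KD" below mean only that a library bears that label. At an edgeR adjusted P under 0.05, all 10 microglia markers rose, with summed levels of 966 to 1209 CPM in the controls and 2119 to 2663 CPM in the KD libraries. Of 10 general neuron markers, 8 fell and 1 rose, with sums of 3978 to 4266 CPM against 2754 to 3039 CPM. The markers of GABAergic neurons fell in 5 of 7 (sums of 599.5 to 673 against 221 to 387 CPM) and those of excitatory neurons in 4 of 6 (6239 to 6580.4 against 3912 to 4518 CPM). The choroid plexus markers Ttr, Kl, Folr1 and Kcne2 ranged widely inside both groups (summed 410.3 to 4488 CPM in the controls, 26.9 to 5002 CPM in the KD libraries) and none passed the test. Of the remaining marker lists, 4 of 7 astrocyte genes fell and 1 rose, and 3 of 6 CA1 and dentate genes fell. Of the endothelial genes 3 of 5 rose, and of the oligodendrocyte genes 1 of 6. Over all genes tested, 15% fell and 15.6% rose, so that 1 of 6 is near that share. In bulk tissue, fewer neurons and less RNA per neuron cannot be told apart, and the part of the marker shifts in the results below was not tested.

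Of the 8 genes, 5 fell in the L-DL KD libraries and none rose at an edgeR adjusted P under 0.05. The 5 were Vamp1, Napb, Snap25, Cplx1 and Vamp2. Over all 17621 genes tested, 15% fell and 15.6% rose, with a median log2 fold change of 0.0059, against a median of -0.43 for the 8 genes. For 7 of the 8 genes the groups did not overlap, as was so for 47.2% of all genes. When levels were scaled by the summed counts of the neuron markers, an alternative chosen after seeing the data, Snap25, Vamp1 and Napb still fell and Stx1a, Vamp2 and Nsf rose, so that 3 fell and 3 rose. This scaling moved the median of all genes to 0.51, with 563 genes lower and 9800 higher. Snhg11, a noncoding RNA with the highest control CPM of that list, not divided by length, carried much of the drop of the sum (from a mean of 1376 to 603 CPM). With Snhg11 left out of the sum, the median of all genes was 0.26, and Snap25, Vamp1, Napb and Cplx1 fell and only Nsf rose (0.24, edgeR adjusted P = 0.0287), while Stx1a was at 0.0051 (0.976) and Vamp2 at 0.061 (0.621).

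**Figure D1:**
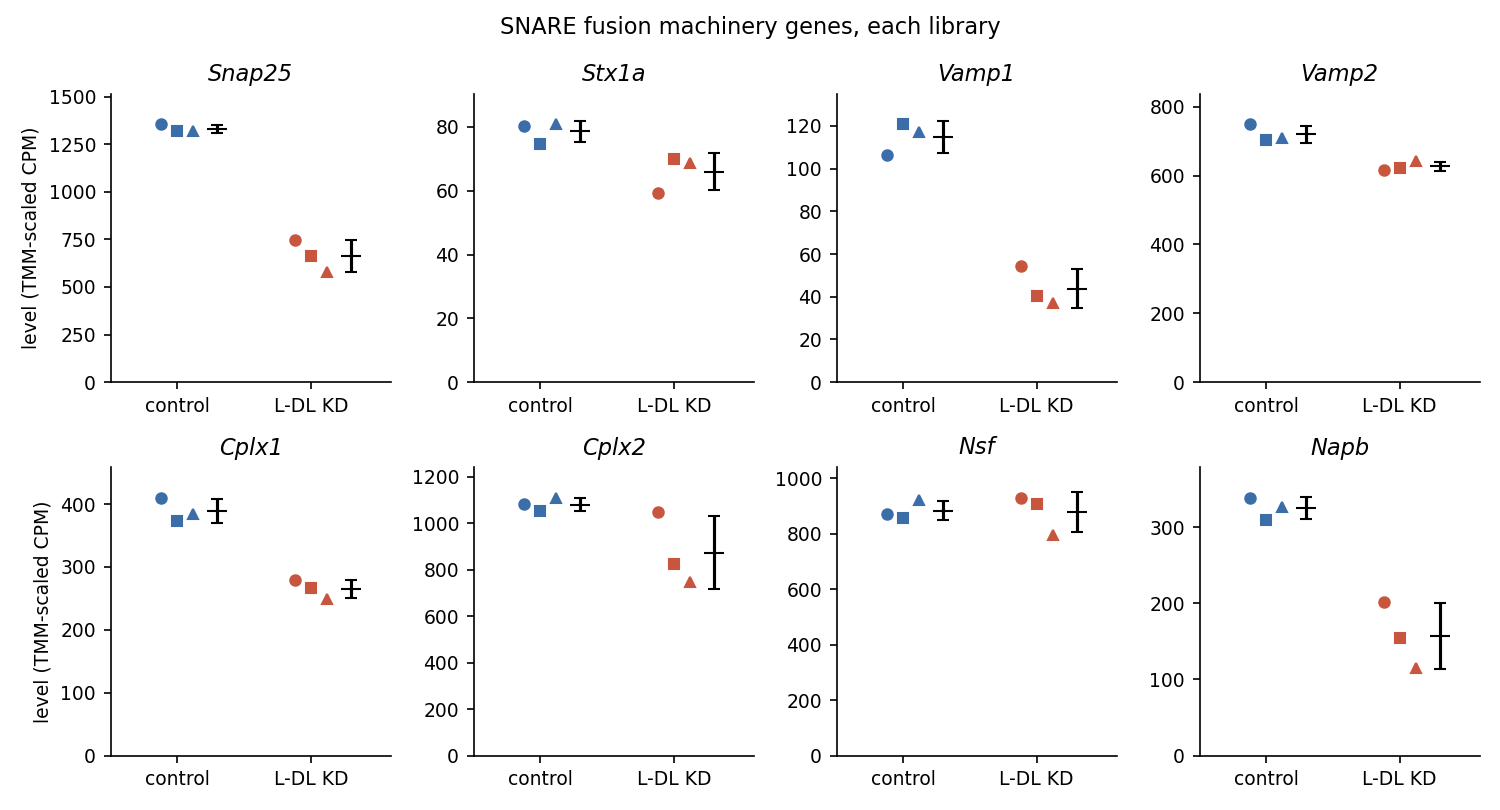
Level of each of the 8 genes in TMM-scaled CPM (vertical axes, each from 0) in the 3 control (blue) and 3 L-DL KD (red) libraries. Circles, squares and triangles are replicates 1, 2 and 3, and black bars are the mean and SD. The groups overlap only for Nsf.

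Among the target-membrane SNAREs, Snap25 encodes the SNAP-25 protein, which supplies a pair of the helices of the bundle and is the substrate of several botulinum toxins. It stood at 1354, 1318 and 1322 CPM in the control libraries and at 749, 661 and 580.4 CPM in the KD libraries. The controls lay within a few percent of each other, and every KD library was far below them. The log2 fold change was -1.005 ± 0.10 (SE, n = 3 per group; edgeR quasi-likelihood test, Benjamini-Hochberg adjusted P = 0.000369), or 0.498 of the control level.

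Stx1a, a neuronal syntaxin that anchors the complex in the plasma membrane, was at 80.3, 74.7 and 80.8 CPM in the controls. In the KD libraries it was at 59.2, 69.9 and 68.5 CPM. All KD libraries lay below all controls, but the difference just missed the threshold (log2 fold change -0.25 ± 0.083 SE, 95% interval -0.45 to -0.063, edgeR adjusted P = 0.0502).

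The vesicle SNAREs moved unequally. Vamp2, the main synaptobrevin of forebrain synapses, had 748, 702 and 708 CPM in the controls and 618, 622 and 643 CPM in the KD libraries. These groups were narrow and lay close to each other without overlap. The log2 fold change of -0.20 ± 0.065 (SE) passed the threshold by a small margin (edgeR adjusted P = 0.0497). Of the 12 alternative analyses, only 3 kept this call, and 7 ended it with edgeR adjusted P up to 0.188. The other 2 reversed the sign. Scaling by all neuron markers gave 0.31 (edgeR adjusted P = 0.0111), and leaving Snhg11 out of that sum gave 0.061 (0.621).

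Vamp1, the synaptobrevin best known from the spinal cord, brainstem and motor nerve terminals, had 106, 121 and 117 CPM in the controls. It had 54.4, 40.3 and 36.9 CPM in the KD libraries. The highest KD library was near the middle of the range between 0 and the lowest control, and the log2 fold change was -1.39 ± 0.14 (SE, edgeR adjusted P = 0.000431), the largest among the 8 genes.

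Of the complexins, Cplx1 fell and Cplx2 did not pass the test. Cplx1 was at 409.7, 373 and 383 CPM in the controls and 279, 267 and 249 CPM in the KD libraries, with no overlap (log2 fold change -0.55 ± 0.072 SE, edgeR adjusted P = 0.00119). Under the neuron marker scaling its log2 fold change was -0.049 (edgeR adjusted P = 0.594), and -0.30 (0.0147) with Snhg11 left out of the sum.

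Cplx2, the complexin that prevails in excitatory forebrain neurons, was at 1081, 1052 and 1109 CPM in the controls. Its KD values spread from 1049 through 827 to 746 CPM. KD replicate 1 was level with the lowest control while the other KD libraries were well below. The log2 fold change was -0.31 ± 0.12 (SE, edgeR adjusted P = 0.0923). Without KD replicate 1 it was -0.46 (edgeR adjusted P = 0.00115), and without KD replicate 3 it was -0.20 (edgeR adjusted P = 0.201). With DESeq2 on all libraries it was -0.31 (adjusted P = 0.0374), so that the call for Cplx2 hung on KD replicate 1 and on the tool.

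The recycling factors parted from each other. Nsf, the ATPase that takes spent complexes apart, had 871, 857 and 923 CPM in the controls and 929.6, 909 and 795 CPM in the KD libraries. These groups overlapped, and the log2 fold change was -0.0097 ± 0.082 (SE, 95% interval -0.20 to 0.18, edgeR adjusted P = 0.942).

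Napb encodes beta-SNAP, the brain-enriched adaptor that brings NSF to the complex. It was at 338, 309.7 and 326 CPM in the controls and 202, 155 and 115 CPM in the KD libraries. All KD libraries were well below the controls but differed among themselves, and the log2 fold change was -1.05 ± 0.18 (SE, edgeR adjusted P = 0.00375), or 0.484 of the control level.

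In 6 of the 8 genes, KD replicate 1 was the highest and KD replicate 3 the lowest of the KD libraries, the exceptions being Stx1a and Vamp2. The same order held for the summed GABAergic markers (387, 278 and 221 CPM in KD replicates 1, 2 and 3), for the summed excitatory markers (4518, 4206 and 3912 CPM) and for the summed oligodendrocyte markers (9508, 8201 and 6579 CPM). By a small margin it also held for the paralogs and plasma membrane SNAREs described below (1083, 1080 and 1057 CPM). It did not hold for the general neuron markers (2935, 3039 and 2754 CPM) or for the SNARE regulators and chaperones described below (2215, 2617 and 2335 CPM). The reverse order was seen for the summed microglia markers (2119, 2435.5 and 2663 CPM) and astrocyte markers (3947.5, 4484 and 4776 CPM). The part of cell composition in this order was not tested. The choroid plexus sum was 5002 CPM in KD replicate 1, against 107 and 26.9 CPM in the other KD libraries. Leaving out KD replicate 1 left 6 of the 8 genes lower, while the genes lower among all tested went from 2636 to 3248.

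**Figure D2:**
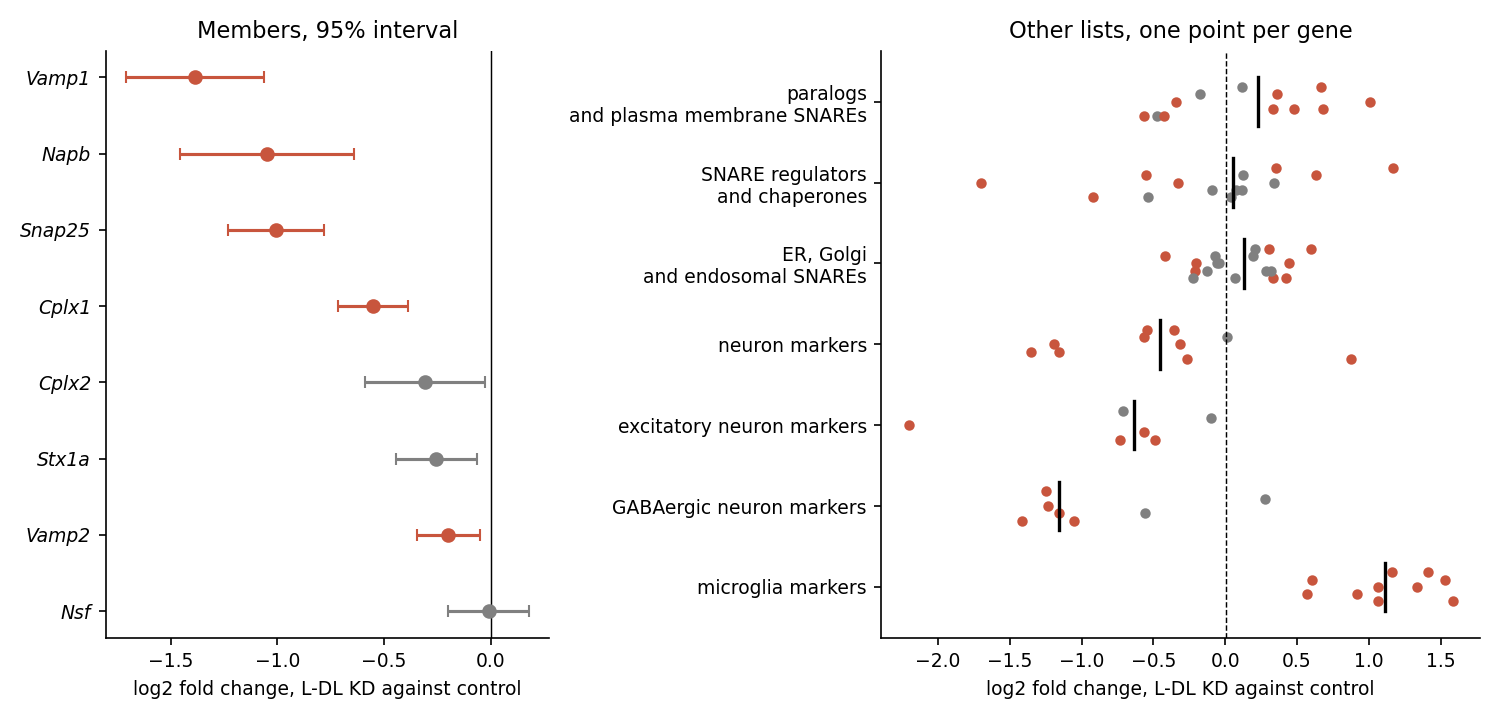
Left, log2 fold change (L-DL KD against control, horizontal axis) of the 8 genes with 95% intervals; right, that of each tested gene of 7 other lists, with the list median as a black line and the median of all genes dashed. Red points passed an adjusted P under 0.05 and grey points did not; Vamp1, Napb, Snap25, Cplx1 and Vamp2 are red at left, and all 10 microglia markers lie to the right of 0.

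Levels of different genes were compared only per kb of transcript. Per kb of the longest coding transcript, Snap25 had the highest level in the controls, 629 ± 9.34 CPM per kb (SD, n = 3), and Vamp2 came next at 326 ± 11.4 CPM per kb. Nsf followed at 235 ± 9.25 CPM per kb, ahead of Cplx2 at 219 ± 5.78 and Cplx1 at 178 ± 8.68 CPM per kb. The lowest levels were those of Napb (73.6 ± 3.24 CPM per kb), Vamp1 (38.1 ± 2.51 CPM per kb) and Stx1a (36.3 ± 1.57 CPM per kb). Of the neighbours in this order, only Vamp1 and Stx1a overlapped. In the KD libraries on the same scale, Snap25 stood at 314 ± 39.9 CPM per kb and overlapped Vamp2 at 284.5 ± 6.09 CPM per kb, and Vamp1 at 14.6 ± 3.08 CPM per kb was last and apart from Stx1a at 30.5 ± 2.68 CPM per kb. Dividing by the union of all annotated exons gave another control order, with Cplx2 first at 219 ± 5.78 CPM per kb, Snap25 next at 196 ± 2.91 and Vamp1 last at 11.3 ± 0.743 CPM per kb. The union is 6.791 kb for Snap25 and 10.167 kb for Vamp1, against 2.116 and 3.011 kb for the longest coding transcripts. The use of the coding transcript was chosen after seeing the data.

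Ratios between close relatives inside a library do not depend on the scaling, but the part of the marker shifts in them was not tested. Napb and Napa encode the neuronal and the general form of the NSF adaptor. The ratio of Napb to Napa was 1.38, 1.27 and 1.36 in the controls and 0.551, 0.449 and 0.377 in the KD libraries. The groups lay far apart. These ratios are of CPM not divided by length, so that they compare libraries and not the levels of the genes. The mean log2 ratio differed by -1.56, while Napa itself rose by 0.48 ± 0.080 (log2, SE, edgeR adjusted P = 0.00354).

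Vamp1 to Vamp2 went from 0.142, 0.172 and 0.165 in the controls to 0.0881, 0.0647 and 0.0575 in the KD libraries, a difference in log2 ratio of -1.21. Snap25 to Snap23, the form found in most tissues, went from 39.8, 37.5 and 35.1 to 18.9, 14.4 and 11.2, a difference of -1.37. In both pairs every KD library lay below every control.

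Cplx1 to Cplx2 was 0.379, 0.354 and 0.346 in the controls and 0.266, 0.323 and 0.334 in the KD libraries, a smaller difference of -0.23 in log2 ratio that was -0.13 without KD replicate 1. In the two-sided exact permutation test over libraries, each of the 4 ratios had P = 0.1, the smallest that 3 against 3 can give, and 0.1 when adjusted over the 4. No ratio can reach the 0.05 threshold by this test with 3 libraries per group.

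**Figure D3:**
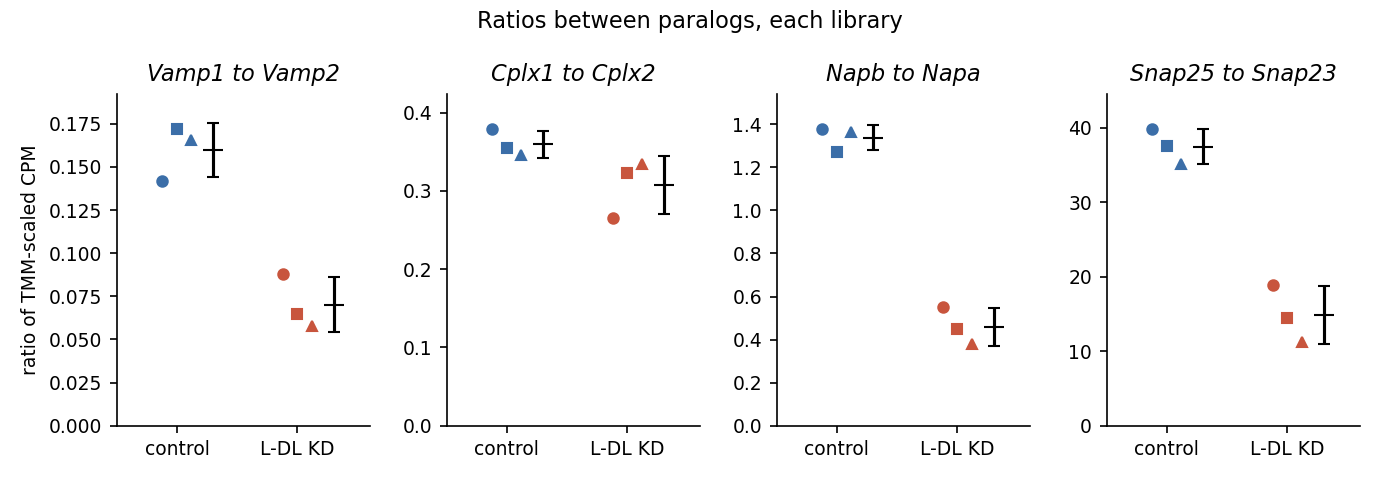
Ratio of the TMM-scaled CPM of gene pairs (vertical axes, each from 0) in the control (blue) and L-DL KD (red) libraries, symbols as replicates 1, 2 and 3, with mean and SD in black. The ratio of Napb to Napa lies between 1.27 and 1.38 in the controls and between 0.377 and 0.551 in the KD libraries. The groups do not overlap for any of the 4 ratios, nor do they for 47.2% of all single genes.

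The other SNAREs of the plasma membrane and the paralogs of the 8 genes formed a list of 14, of which 12 were tested. In it 6 rose, 3 fell and 3 did not pass, where 15.6% of all genes tested rose and 15% fell. The median log2 fold change of the list was 0.23. The largest rise was in Stx3, a syntaxin of apical and postsynaptic membranes, at 48.5, 50.3 and 50.3 CPM in the controls and 77.4, 105 and 118 CPM in the KD libraries (1.01 ± 0.14 SE, edgeR adjusted P = 0.00162). The vesicle SNAREs of non-neuronal cells, Vamp3 (0.66 ± 0.072) and Vamp8 (0.68 ± 0.12), rose as well, as did Stx2 (0.33 ± 0.076) and Snap23 (0.36 ± 0.11), whose levels were 34.0 to 37.7 CPM in the controls and 39.6 to 52.0 CPM in the KD libraries. The falls were in Snap47 (-0.57 ± 0.077, the largest of the list), Vamp4 (-0.43 ± 0.068) and Napg (-0.34 ± 0.066). Under the neuron marker scaling none of the list fell and 8 rose, beside 563 and 9800 of all genes. The values of Vamp4 and Napg then turned to 0.075 and 0.16.

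Of 14 regulators and chaperones of SNARE assembly, 4 fell, 3 rose and 7 did not pass, where 15% of all genes tested fell and 15.6% rose. The median log2 fold change of the list was 0.057. Doc2b, a calcium sensor of spontaneous and asynchronous release, showed the largest fall, from 128, 135 and 119 CPM to 43.6, 37.2 and 36.6 CPM (-1.70 ± 0.092 SE, edgeR adjusted P = 7.94e-05). Dnajc5, the cysteine string protein that chaperones SNAP-25, fell by 0.92 ± 0.073 on the log2 scale (edgeR adjusted P = 0.000194), and its partner chaperone Hspa8 by 0.55 ± 0.11. Sncb, which encodes beta-synuclein of the presynaptic terminal, was the other fall (-0.33 ± 0.095). Prrt2, with the largest rise (1.17 ± 0.38 SE, edgeR adjusted P = 0.0492), was under 4 CPM in every library. Stxbp6 (amisyn; 0.63 ± 0.10) and Stxbp3, a Munc18 of non-neuronal cells (0.36 ± 0.10), also rose. Under the neuron marker scaling 2 fell, Doc2b (-1.20) and Dnajc5 (-0.42), and 8 rose, beside 563 and 9800 of all genes. Sncb turned to 0.17 there.

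The SNAREs of the endoplasmic reticulum, Golgi and endosomes serve traffic inside all cells. Of 18 tested, 5 rose, 3 fell and 10 did not pass, where 15.6% of all genes tested rose and 15% fell, so that the falls were near that share. The median log2 fold change of the list was 0.13. Stx18 had the largest rise (0.60 ± 0.12 SE, edgeR adjusted P = 0.00722) and Gosr1 the largest fall (-0.42 ± 0.066 SE, edgeR adjusted P = 0.00269). Under the neuron marker scaling 17 of the 18 rose and none fell, beside 9800 and 563 of all genes, and Gosr1 turned to 0.085.

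For each of the 8 genes the tested gene with the most similar pattern was sought, by the root mean square difference between log2 CPM profiles over the 6 libraries, each centred on its own mean. Snap25 was closest to Rnft2 (difference 0.00894 in log2 CPM), Stx1a to Zfp27 (0.0138), Vamp1 to Cpne4 (0.0478) and Vamp2 to Tmx2 (0.0118). Cplx1 was closest to Myl12b (0.0195), Cplx2 to Nsun7 (0.0169), Nsf to Nbea (0.0196) and Napb to Neto2 (0.0627). These are descriptions over 6 points that share the division into groups.

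Splicing was measured as PSI, the share of a form per unit of effective length, computed from junction counts in each library. The libraries carry no replicate numbers in that table and are given in its order. Of the 15 listed events, 7 in Snap25, Stx1a, Napb and Cplx1 had enough counts of both forms to be tested. None was called by edgeR at an adjusted P under 0.05, where 0.255% of the 18829 events tested were called. Limma called 0 of all events tested, so its lack of calls says nothing particular about the 7. At an unadjusted edgeR P under 0.05 there were 3 of 7, against 13.3% of all events tested. The same 3 events had groups that did not overlap in PSI, as did 18.4% of all events.

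The first of these was the choice between exons 5a and 5b of Snap25, whose sequences are given above. The junctions of exon 5a were read 505, 408 and 469 times in the controls and 318, 489 and 334 times in the KD libraries. Those of exon 5b were read 5314, 5598 and 5365 times in the controls and 3260, 2591 and 1937 times in the KD libraries. The PSI of exon 5a was therefore 0.0868, 0.0679 and 0.0804 in the controls and 0.0889, 0.159 and 0.147 in the KD libraries.

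One KD library lay at the edge of the control range and the others well above it. The mean PSI was 0.0784 ± 0.00959 (SD, n = 3) against 0.132 ± 0.0374. The ratio of the forms differed by 0.80 ± 0.27 on the log2 scale (SE, edgeR adjusted P = 0.251). Over the alternatives the adjusted P ran from 0.0811 to 0.502. Exon 5b thus stayed the main form in every library.

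Each form was also scaled to the junction total of its library and given as junction CPM. Exon 5b was at 762, 789.6 and 794 in the controls and 413, 326 and 271 in the KD libraries (ratio of means 0.431, exact permutation P = 0.1, the smallest possible). Exon 5a was at 72.4, 57.6 and 69.4 against 40.3, 61.6 and 46.7, which overlapped (ratio of means 0.745, exact permutation P = 0.2). Reads that join exon 5b to exon 6 and exon 6 to exon 7, of which the former come from the 5b form alone, were together at 850.0, 848 and 869 against 460.1, 373 and 325 (ratio 0.451, exact permutation P = 0.1), close to the ratio of 0.498 fitted to the gene's counts. These are the same reads counted in another way, not an independent measurement.

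The second was the long form of Stx1a exon 9. Its junction was read 14, 5 and 19 times in the controls and 17, 35 and 21 times in the KD libraries, beside 155, 134 and 169 and then 119, 134 and 147 reads of the short form. PSI was 0.0551, 0.0235 and 0.0676 in the controls and 0.0844, 0.144 and 0.0844 in the KD libraries. All KD values were above all control values, but few reads carried the long form. The means were 0.0487 ± 0.0227 (SD, n = 3) and 0.104 ± 0.0345, with a log2 change of the ratio of forms of 1.15 ± 0.50 (SE, edgeR adjusted P = 0.357). The difference in PSI was 0.0556, and 0.0356 without the KD library listed second.

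The third was Stx1a exon 4, a 75 nt exon at chr5:135041237-135041311 that keeps the reading frame when left out and that the annotated coding transcript Stx1a-206 lacks. Reads that skip it numbered 0, 1 and 0 in the controls and 2, 6 and 7 in the KD libraries, beside 337, 294 and 321 and then 233, 278 and 237 reads that include it. Almost all Stx1a reads thus held exon 4 in both groups. Summed over libraries, 0.105% of the control reads and 1.97% of the KD reads skipped the exon, a ratio of 18.7 with an exact 95% interval of 2.88 to 789 that covers counting error only. The edgeR adjusted P was 0.149.

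**Figure D4:**
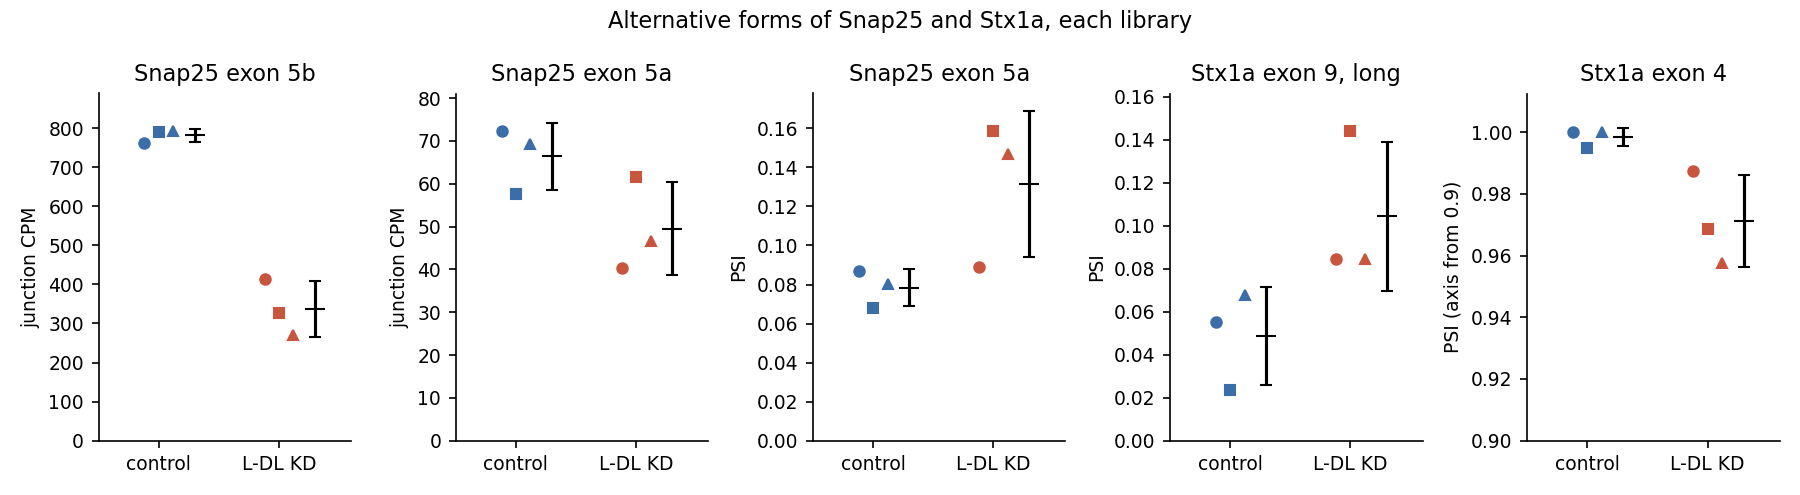
Snap25 exon 5b and exon 5a junction CPM (first 2 panels) and PSI of Snap25 exon 5a, the long form of Stx1a exon 9 and Stx1a exon 4 (the last on an axis from 0.9) in control (blue) and L-DL KD (red) libraries. Circles, squares and triangles are the libraries in the order listed in the splicing table, and black bars are mean and SD; the groups lie apart for exon 5b in junction CPM and overlap for exon 5a.

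The other 4 tested events overlapped between the groups. Exon 5b of Snap25 set against exon 6 as alternatives had a mean PSI of 0.463 in the controls and 0.442 in the KD libraries (edgeR adjusted P = 0.865). Most reads of both belong to transcripts that hold both exons, so this event does not measure a choice. Its exon 6 reads also include those of transcripts with exon 5a in place of exon 5b. Napb exon 4, of 47 nt, had mean PSI values of 0.953 and 0.941 (adjusted P = 0.821). Retention of the intron beside it was supported by 6, 13 and 5 reads in the controls and 5, 15 and 3 in the KD libraries. Its PSI was 0.00833, 0.0207 and 0.00611 against 0.00956, 0.0276 and 0.0115 (log2 change of the ratio of forms 0.61 ± 0.64 SE, edgeR adjusted P = 0.765).

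Exon 3 of Cplx1 was skipped by 5, 3 and 3 reads in the controls and 6, 1 and 13 reads in the KD libraries, beside 1527 to 2471 reads that include it. Its PSI was 0.996, 0.998 and 0.997 against 0.993, 0.999 and 0.983, so that nearly all transcripts held the exon (log2 change of the ratio of forms -1.33 ± 0.77 SE, edgeR adjusted P = 0.497).

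The remaining 8 events, 4 of them in Nsf, 3 in Snap25 and 1 in Stx1a, had a mean of under 1 count of 1 of the forms and were not tested. Exons 5a and 5b of Snap25 were each skipped outright by 3 reads in 1 control library and by none in the other 5 libraries. Exon 6 of Snap25 was skipped by 2 reads in all, beside 2322 to 6010 reads that include it in a library. The second exon of Nsf was included in 1227, 1241 and 1595 reads in the controls and 1623, 1898 and 1263 in the KD libraries, with 1 skipping read, in a control, in that event. A further event of the same exon with another neighbour had 2 skipping reads, both in KD libraries.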

How the data were processed

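The authors aligned read pairs to GRCm38 and deposited raw read counts per Ensembl gene without normalization; the submitters' processing notes name HISAT2 2.1.0, HTSeq 0.6.1 and Bowtie 1.1.2. The authors also deposited rMATS junction counts of each form with effective lengths, PSI, p-values, FDR and PSI differences; the latter 4 were not used. Which of its sample sets is KD follows from the study's definition of a PSI difference as KD minus control. The members and lists were chosen with earlier results of these data known. Symbols were found for 52403 of 52550 gene IDs.

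A gene entered the analysis when 3 or more libraries held 10 or more counts of it. TMM scaling was followed by edgeR 4.0.16 (quasi-likelihood test, Benjamini-Hochberg adjusted P under 0.05) on R 4.3.3, with all 6 libraries and no covariate. An event entered when its library mean reached 20 counts, 1 of them for either form, and edgeR was fitted to both forms, with an effect for each library. On simulated data with 200 changed features, the gene test recovered 61% at a log2 shift of 1 and the event test 23% at a logit shift of 1.5. Alternatives were DESeq2 1.42.0, library size scaling, no filter, a replicate block, leaving out each library, limma 3.58.1 with a pseudocount of 0.5, other count minimums, PSI without effective lengths and, chosen after seeing the data, neuron marker scaling with and without Snhg11 and coding transcript length. Named genes were the 8 members, Hnrnpdl, the largest and smallest change of each list and the paralogs in the ratios; other list genes given with values were named after their values were seen. In full were given the Snap25 exon 5 event with the most counts and each gene's event with the smallest edgeR P; the exon 9 event of Stx1a and the untested events were added after their values were seen. No protein sequence is printed here, and some genes of the planned lists and 1 planned ratio are not reported here.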

Additional observations from a re-analysis of the deposited data

How the results depend on the processing

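Snap25, Vamp1 and Napb kept their direction and their call under all 12 alternatives, with adjusted P of at most 0.0194, and Cplx1 under 11. Under the neuron marker scaling, 3 of the 8 genes were lower and 3 higher, and 563 of all genes were lower and 9800 higher; there the log2 fold changes were 0.25 for Stx1a (adjusted P = 0.0486), 0.31 for Vamp2, 0.19 for Cplx2 (0.156), 0.49 for Nsf (0.000515) and 0.53 for Hnrnpdl (0.00873). Without Snhg11 in that sum, 4 of the 8 were lower and 1 higher, 1124 of all genes were lower and 5316 higher, and Stx1a, Vamp2 and Nsf were at 0.0051, 0.061 and 0.24. Between 4 and 6 of the 8 genes were lower when 1 library was left out, with 1693 to 3248 of all genes lower and 1767 to 3272 higher. DESeq2 gave 6, with 2724 of all genes lower. Library size scaling, no filter and the replicate block gave 4 each, with 2392, 2576 and 2323 of all genes lower. Nsf turned to 0.022 with library size scaling and ranged from -0.053 to 0.057 when 1 library was left out, and Hnrnpdl from -0.13 to 0.15. Replicate numbers did not pair the samples (correlations of same-numbered libraries 0.0626, 0.157 and -0.14); with the replicate block Vamp2 was at -0.20 (adjusted P = 0.104). Vamp2 also lost its call with library size scaling (adjusted P = 0.0805), with no filter (0.123) and without control replicate 1 (0.188), control replicate 2 (0.114), control replicate 3 (0.111) or KD replicate 2 (0.117). The cause was not tested.

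No paired analysis of splicing was possible because the libraries of that table carry no numbers. No event of the 8 genes was called under any of the 9 alternatives. Of all events, 48 were called, 0 by limma and 0 to 63 when 1 library was left out; without control replicate 3 in table order none was. Without 1 library, the log2 change of the ratio of forms ran from -0.090 to 1.24 for retention of the Napb intron and from -1.10 to 0.0096 for Napb exon 4. Without 1 library, differences in log2 ratio ran from -1.38 to -1.08 for Vamp1 to Vamp2, from -0.30 to -0.13 for Cplx1 to Cplx2, from -1.70 to -1.43 for Napb to Napa and from -1.56 to -1.18 for Snap25 to Snap23. PSI differences ran from 0.0396 to 0.0746 for Snap25 exon 5a, from 0.0356 to 0.0656 for the long exon 9 and from -0.0351 to -0.0203 for exon 4 of Stx1a, from -0.00875 to -0.000917 for Cplx1 exon 3, from -0.00117 to 0.00901 for the Napb intron and from -0.0300 to 0.00265 for Napb exon 4, both of which changed sign. The 16 skipping reads of Stx1a exon 4 in all libraries and the 5 to 35 long-form reads of exon 9 limit what can be resolved at this depth.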
